A study of Mus musculus with 18 samples.

Results

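The lysine and histidine tRNAs of the cytoplasm were followed in small RNA libraries from 3 cell fractions of the mouse brain. Every tRNA gene copy whose identifier names lysine (Lys) or histidine (His) was taken, which gave 41 of the 407 tRNA gene copies in a table of 203513 features. The copies comprised 19 for Lys with anticodon CTT, 12 for Lys with anticodon TTT and 10 for His with anticodon GTG. Copies that share a family number carry the same or nearly the same sequence and form an isodecoder. The 41 copies formed 20 of 218 isodecoders and 3 of 51 anticodons. Counts were summed over the copies of an isodecoder and over an anticodon, because a read that fits several near-identical copies was counted at only one of them. Mice were 10 months old, on the C57BL/6 background, and either wild type (WT) or carried the Atxn2-CAG100-KIN allele (here KIN) on both chromosomes. This allele is a knockin that lengthens the CAG repeat of Atxn2 and serves as a model of spinocerebellar ataxia type 2. Brains were dissociated, and microglia (anti-CD11b beads), astrocytes (anti-ACSA-2 beads) and neurons (what remained after beads had bound other cells, endothelium included) were taken out one after the other. This gave 6 groups of 3 libraries: Astrocytes WT, Astrocytes KIN, Microglia WT, Microglia KIN, Neurons WT and Neurons KIN.

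A tRNA reads a codon with the 3 bases of its anticodon and delivers the amino acid that its synthetase attached. Lys-CTT pairs with the lysine codon AAG, while Lys-TTT reads AAA and, with a heavily modified first anticodon base, also AAG. Modifications of Lys-TTT, built with the enzymes Alkbh8, Ctu1, Ctu2 and Cdkal1 among others, keep its pairing with codons accurate. The His tRNA is set apart by a guanosine that the enzyme Thg1l adds in front of its first base, which the histidine synthetase needs for recognition. It also carries the base queuosine at the start of its anticodon. Cleaved tRNAs persist in cells as fragments, and reads of a small RNA library can come from such fragments or from whole tRNAs, which counts per gene cannot tell apart.

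Mitochondria carry a lysine and a histidine tRNA of their own, transcribed from the mitochondrial genome and read with the same anticodons as Lys-TTT and His-GTG. Their sequences in GRCm39, the build that mm39 also names, are shown with the anticodon in capitals, because they are the organelle counterparts of the tRNAs described here and were measured in the same libraries. The gene mt-Tk lies at chrM:7700-7764 on the forward strand, is 65 bases long and has its anticodon at bases 27 to 29. The gene mt-Th lies at chrM:11546-11612 on the forward strand, is 67 bases long and has its anticodon at bases 30 to 32.
mt-Tk: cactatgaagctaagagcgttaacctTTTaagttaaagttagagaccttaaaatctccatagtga
mt-Th: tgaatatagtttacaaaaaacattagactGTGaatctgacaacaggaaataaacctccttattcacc

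Another sequence is shown because its counts ran beside those of Lys-CTT in all 18 libraries. It is a stretch of 73 bases (bases 630 to 702 of 773) in Ttyh1-210, a transcript with a retained intron of Ttyh1, the gene of a membrane protein of the Tweety family. The stretch lies at chr7:4134890-4134962 on the forward strand, inside the span of all 40 coding transcripts of the gene and in an exon of 0 of them. Capitals mark a CTT in a loop of 7 bases that is closed by 5 base pairs, the layout of an anticodon arm.
Ttyh1-210: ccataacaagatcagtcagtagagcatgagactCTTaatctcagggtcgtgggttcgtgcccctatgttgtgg
The stem and loop of 17 bases, TGAGACTCTTAATCTCA, was searched on both strands of 123990 GENCODE vM39 transcripts of 500 to 1000 bases. Ttyh1-210, from which these letters were taken and which was therefore certain to be found, was the 1 transcript that held them (0.000807%). The search describes the letters, and does not test whether they are rarer than other stretches or what they do.

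Libraries held 1211118 to 4316748 counts, of which 2.94% to 16.6% were on tRNA, and the 41 copies took 2.78% to 10.2% of the tRNA counts. Equal amounts of RNA entered each library, so all values are relative (levels in CPM, counts-per-million of the library total), and fewer cells of a type cannot be told apart from less RNA per cell. Marker miRNAs fitted the microglia label, with a summed level of the 4 microglial miRNAs of 8742 to 18987 CPM in microglia, against 21.3 to 75.0 in astrocytes and 121 to 523 in neurons. The neural-lineage miRNA mmu-miR-9-5p stood at 5031 to 7941 CPM in astrocytes, 519 to 3052 in neurons and 52.7 to 218 in microglia. The other of its kind, mmu-miR-9-3p, stood at 805 to 1555 CPM in astrocytes and 444 to 631 in neurons in WT. In KIN the ranges of mmu-miR-9-3p overlapped, at 760 to 905 CPM in astrocytes and 585 to 1027 in neurons. Markers went against the neuron label: the 4 neuronal miRNAs summed to 52.8 to 241 CPM in the neuron fraction and to 1051 to 3224 CPM in the astrocyte fraction. The study describes same-sex littermate pairs of WT and KIN mice, of which more were male than female. Xist, an RNA of the inactive X chromosome of females, went against this and stood at 1.27 to 2.13 CPM in KIN replicate 1 of all 3 fractions and at 7.59 to 36.3 CPM in every other library. Microglia WT replicate 2 and Neurons WT replicate 2 stood apart from their groups in the tRNA values below, and Neurons WT replicate 1 was the shallowest library, so results that rest on them are given with and without them.

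Counts were concentrated on few members. Of the 440726 counts on Lys and His tRNA, 99.7% fell on 4 isodecoders: Lys-CTT-3 (7 copies, 242603 counts), Lys-CTT-2 (2 copies, 107073 counts), Lys-TTT-1 (6 copies, 65366 counts) and His-GTG-2 (8 copies, 24332 counts). The copies of each divided the reads nearly evenly over the 18 libraries, from 53522 to 53551 counts for the copies of Lys-CTT-2, 34396 to 34813 for Lys-CTT-3, 10702 to 11028 for Lys-TTT-1 and 2973 to 3066 for His-GTG-2. The other 16 isodecoders, with 18 copies, held 1352 counts together. His-GTG-3 led these with 648 counts, followed by Lys-TTT-2 with 218, Lys-CTT-4 with 98, Lys-CTT-14 with 93, Lys-CTT-12 with 85, His-GTG-1 with 71 and Lys-TTT-3 with 36. Lys-TTT-4 had no count in any library, which allows a level of up to 0.695 to 2.48 CPM by library. In all, 11 isodecoders had at least 5 counts in 2 libraries of some comparison and could be tested. The other 9 (10 copies, 103 counts in total, at most 25 for Lys-TTT-5) could not.

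Lys-CTT was among the leading tRNAs of these libraries, and His-GTG was among the rare ones. Averaged over the 18 libraries, Lys-CTT took 5.98% of the tRNA counts and ranked 4 of 51 anticodons, behind Glu-CTC, Asp-GTC and Gly-GCC. Lys-TTT took 1.00% and ranked 25, and His-GTG took 0.42% and ranked 42. The rank of Lys-TTT moved most with the fraction, from 16 in Microglia WT to 33 in Astrocytes WT, whereas Lys-CTT stayed between 3 and 6 and His-GTG between 37 and 42. Per kilobase of tRNA gene, Lys-CTT reached 87505 ± 9702 CPM in Astrocytes WT (mean ± SD, n = 3 here and below), Lys-TTT 11267 ± 1483 and His-GTG 9168 ± 605.

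**Figure D1:**
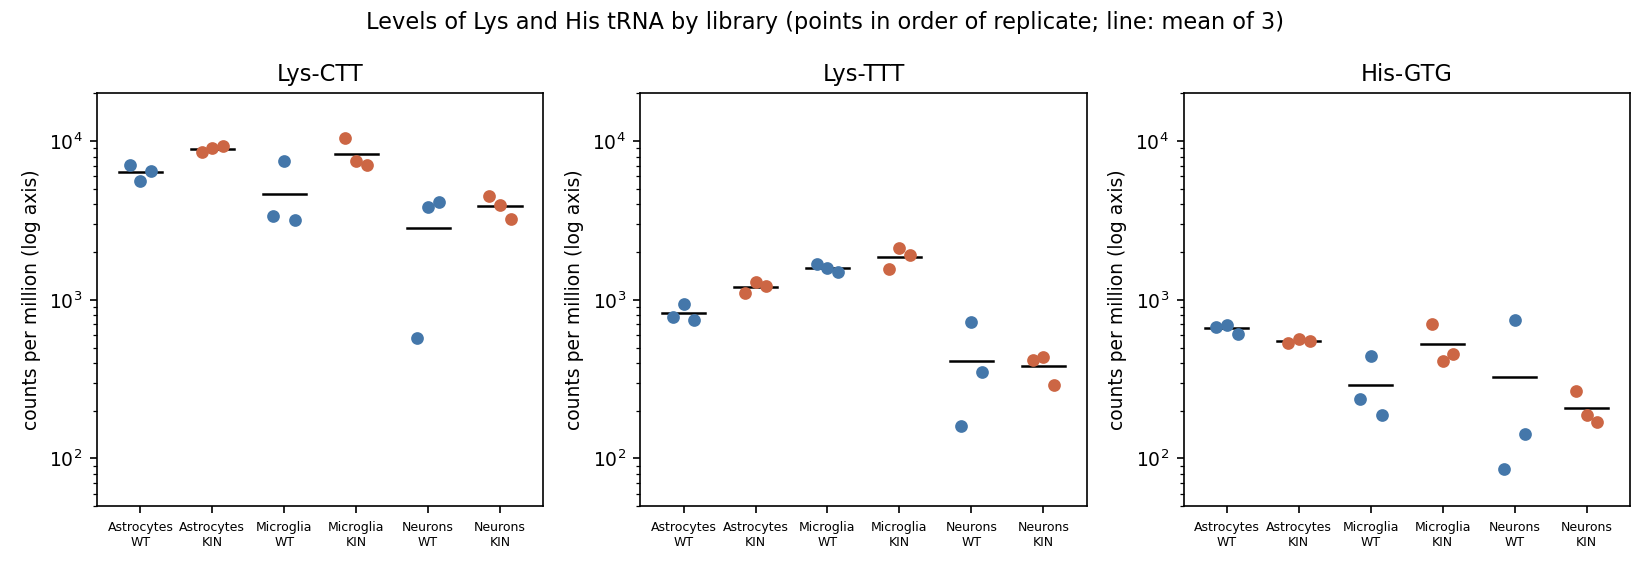
Levels of the 3 anticodon sums in the 18 libraries, in CPM on a log axis, with WT in blue, KIN in orange and a line at the mean of 3 libraries. Lys-TTT was highest in the 6 microglia libraries (1504 to 2120), Microglia WT replicate 2 (7464) lay above its group for Lys-CTT, and Neurons WT replicate 2 (745) lay above its group for His-GTG.

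The first question of the design is what the KIN allele changed within a fraction. In astrocytes both lysine tRNAs rose, and the histidine tRNA did not rise with them. For Lys-CTT the WT libraries held 7066, 5653 and 6445 CPM and the KIN libraries 8555, 9032 and 9283 CPM. Every KIN library lay above every WT library, and the ratio of the mean CPM was 1.40. For Lys-TTT the WT libraries held 780, 946 and 742 CPM and the KIN libraries 1110, 1303 and 1216 CPM. These groups did not overlap either, with a ratio of the mean CPM of 1.47. For His-GTG the order was turned, with 671, 697 and 612 CPM in WT and 530, 567 and 547 CPM in KIN. Every KIN library was below every WT library, at 0.83 of the WT mean.

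With edgeR's quasi-likelihood test over all features, a feature passed at a Benjamini-Hochberg adjusted p of at most 0.05 and was called if its log2 fold change was also at least 1 in size. In astrocytes Lys-CTT passed with a log2 fold change of 0.65 ± 0.09 (SE, adjusted p = 0.00402, edgeR) and Lys-TTT with 0.71 ± 0.14 (adjusted p = 0.0188, edgeR). His-GTG did not pass (-0.11 ± 0.12, adjusted p = 0.538, edgeR). The median of all features in that fit was -0.21, and relative to it Lys-CTT stood at 0.86, Lys-TTT at 0.92 and His-GTG at 0.10. Over 4 other fits these distances ran from 0.81 to 0.88, from 0.92 to 0.94 and from 0.089 to 0.11. Those fits were DESeq2, library totals as the scale, mature miRNAs as the scale and 1 fit of all 18 libraries. A change of scale shifts all features nearly alike, so these distances could hardly move and do not test the scaling. Of the 49 anticodon sums tested, 14 passed with a rise and 0 with a fall, and by log2 fold change Lys-TTT ranked 6, Lys-CTT 8 and His-GTG 49, the lowest place. Among the isodecoders, Lys-CTT-2 (0.74 ± 0.11, adjusted p = 0.00435, edgeR), Lys-CTT-3 (0.60 ± 0.08, adjusted p = 0.00435, edgeR) and Lys-TTT-1 (0.71 ± 0.14, adjusted p = 0.0172, edgeR) passed, which made 3 of 9 tested, all higher, where 11.4% of all features passed. Of all tRNA isodecoders 36 of 176 passed, 33 of them higher, and 140 of the 176 were higher in KIN. None of the 9 Lys and His isodecoders was called, against 8.23% of all features. At an unadjusted p under 0.05 the number was 4 of 9, against 34.3% of all features. DESeq2 called 0 of the isodecoders, and 384 of 5414 features in its fit of anticodon sums.

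The lysine sums in astrocytes did not pass under every alternative. In 1 fit of all 18 libraries neither did (0.77, adjusted p = 0.329, and 0.82, adjusted p = 0.201, edgeR). Without Astrocytes WT replicate 3 Lys-CTT no longer passed (0.61, adjusted p = 0.0554, edgeR), and of the 6 fits with 1 library left out Lys-TTT passed only in that without Astrocytes WT replicate 2 (0.59 to 0.87 over the 6). When mature miRNAs alone set the scale the Lys-CTT value became -0.11 and that of Lys-TTT 0.015, while the median of all features fell to -0.92. The summed level of 2 oligodendrocyte miRNAs also lay apart between the genotypes, at 830 to 1496 CPM in WT and 1510 to 2148 CPM in KIN astrocytes, as did that of the 4 microglial miRNAs, at 21.3 to 34.9 CPM in WT and 44.1 to 75.0 CPM in KIN. Their part in these results was not tested.

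In microglia the mean of each of the 3 anticodons was higher in KIN, but the libraries of the genotypes overlapped for each. For Lys-CTT the WT libraries held 3363, 7464 and 3192 CPM and the KIN libraries 10510, 7488 and 7091 CPM. Only WT replicate 2 overlapped the KIN libraries, and it held more than 2 times the CPM of the other WT libraries. His-GTG showed the same layout, with 235, 445 and 188 CPM in WT and 705, 410 and 452 CPM in KIN. Lys-TTT was even within WT, at 1676, 1580 and 1504 CPM, and stood at 1566, 2120 and 1905 CPM in KIN. Here the overlap came from KIN replicate 1, the lowest of the KIN libraries for Lys-TTT and the highest for Lys-CTT and His-GTG. KIN replicate 1 was also the microglia library with low Xist (1.27 CPM), and a part of sex in these values was not tested.

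No sum passed in microglia, with log2 fold changes of 1.03 ± 0.41 for Lys-CTT (adjusted p = 0.149, edgeR), 0.48 ± 0.21 for Lys-TTT (adjusted p = 0.205, edgeR) and 1.06 ± 0.41 for His-GTG (adjusted p = 0.137, edgeR). The median of all features was -0.09 and that of the tRNA isodecoders 0.91, with 172 of 176 higher in KIN, so Lys-CTT and His-GTG lay near the tRNA in general and Lys-TTT below it, at rank 46 of 49 anticodons. None of the 8 isodecoders tested was called, against 6.35% of all features. At an unadjusted p under 0.05 the number was 5, against 23.2% of all features. DESeq2 called 1 of the isodecoders, and 324 of 4659 features in its fit of anticodon sums. Without Microglia WT replicate 2, Lys-CTT passed at 1.75 (adjusted p = 0.00139, edgeR), Lys-TTT at 0.60 (adjusted p = 0.0486, edgeR) and His-GTG at 1.71 (adjusted p = 0.00404, edgeR). Without that library 5 isodecoders were called, and 766 of 4576 features in the fit of anticodon sums. Summed marker miRNAs also lay apart between the genotypes in microglia. The 4 microglial miRNAs stood at 8742 to 9880 CPM in WT and 12371 to 18987 CPM in KIN, those of red blood cells at 17.3 to 22.2 and 28.6 to 131 CPM, and the 2 of oligodendrocytes at 19.3 to 21.5 and 22.6 to 32.7 CPM. Neuronal miRNAs were lower in KIN (64.5 to 168 CPM in WT and 51.5 to 60.7 CPM in KIN), as were those of the neural lineage (82.3 to 245 and 59.1 to 68.6 CPM). Their part in these results was not tested.

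In neurons the WT libraries spread widely and no difference was detectable. Lys-CTT stood at 573, 3843 and 4118 CPM in WT and at 4516, 3966 and 3223 CPM in KIN. Lys-TTT stood at 161, 723 and 350 CPM in WT and at 417, 435 and 289 CPM in KIN. His-GTG stood at 85.9, 745 and 143 CPM in WT and at 265, 187 and 170 CPM in KIN. The WT range enclosed all KIN libraries for Lys-TTT and His-GTG, and overlapped them for Lys-CTT. Log2 fold changes were 0.46 ± 0.52 (Lys-CTT, adjusted p = 0.897, edgeR), -0.13 ± 0.46 (Lys-TTT, adjusted p = 0.967, edgeR) and -0.69 ± 0.65 (His-GTG, adjusted p = 0.887, edgeR). Of 8 isodecoders tested by edgeR 0 were called, 0 had an unadjusted p under 0.05 and DESeq2 called 0, while 0% of all 4381 features were called and 210 of these had an unadjusted p under 0.05. Without Neurons WT replicate 2 the values for Lys-TTT and His-GTG turned to 0.57 and 0.84, and without replicate 1 that for Lys-CTT turned to -0.022.

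**Figure D2:**
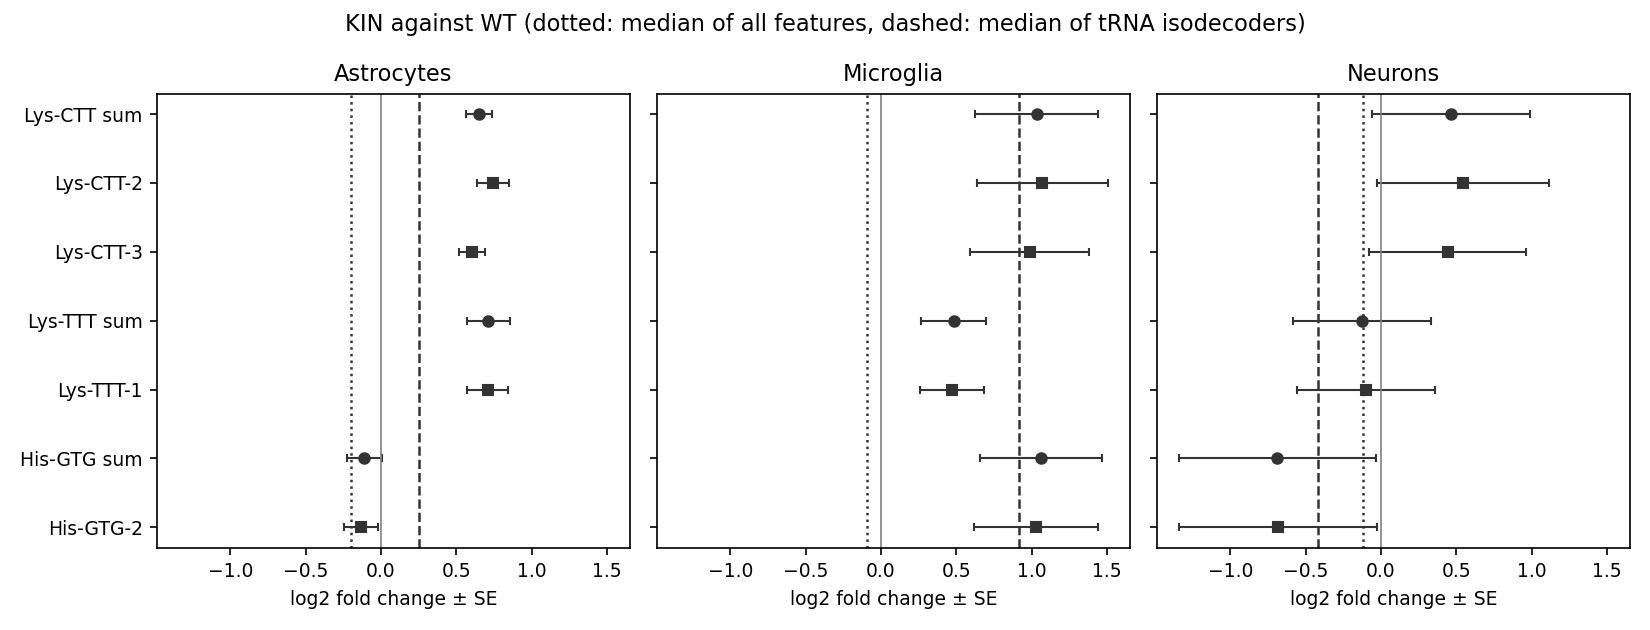
Log2 fold change of KIN against WT with its SE for the 3 anticodon sums (circles) and the 4 leading isodecoders (squares) in each fraction, with the median of all features dotted and that of tRNA isodecoders dashed. In astrocytes the lysine values (0.60 to 0.74) lay above the tRNA median (0.25) and His-GTG (-0.11) below it.

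The difference of the KIN effect between fractions was tested in 1 fit of all 18 libraries. No anticodon sum and no isodecoder of Lys or His passed. The sum with the smallest p was His-GTG, whose KIN effect was lower in neurons than in microglia by a log2 value of -1.78 ± 0.70 (adjusted p = 0.311, edgeR), and without Neurons WT replicate 2 the difference was 0.0014.

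Shares of the tRNA counts need no scaling between libraries. In astrocytes Lys-CTT went from 5.90 ± 0.70% of tRNA counts in WT to 7.38 ± 0.25% in KIN, Lys-TTT from 0.758 ± 0.083% to 0.995 ± 0.057%, and His-GTG from 0.608 ± 0.017% to 0.451 ± 0.005%. For all 3 anticodons the 3 KIN libraries lay outside the WT range, upward for lysine and downward for histidine. How many other anticodons or features lay apart in this way was not counted. In the edgeR fit of anticodon sums 34.1% of all features had an unadjusted p under 0.05 in this comparison. The exact two-sided permutation test gave p = 0.1 for each, the smallest that 3 against 3 libraries allow, with an adjusted p of 0.225 over 9 comparisons. In microglia Lys-TTT took the other direction. Its share was 1.79, 1.40 and 1.76% of tRNA counts in the WT libraries and 1.12, 1.35 and 1.15% in the KIN libraries, so that every KIN library was lower (exact permutation p = 0.1, adjusted 0.225). The Lys-CTT and His-GTG shares overlapped between the genotypes in microglia (4.64 ± 1.69% and 5.52 ± 1.74%, exact permutation p = 0.5, and 0.288 ± 0.092% and 0.346 ± 0.137%, exact permutation p = 0.5), as did all shares in neurons (exact permutation p of 0.4, 0.5 and 1.0).

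**Figure D3:**
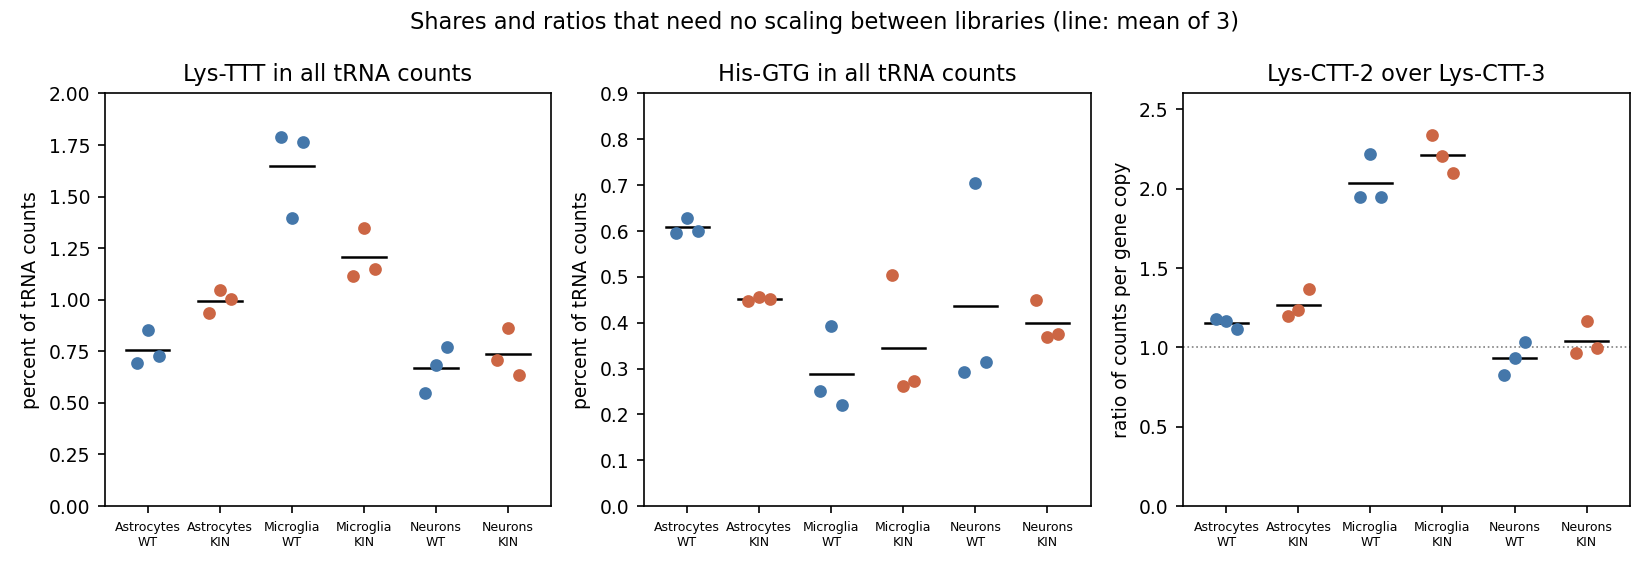
Share of tRNA counts held by Lys-TTT and by His-GTG in percent, and the ratio of counts per gene copy of Lys-CTT-2 to Lys-CTT-3, in the 18 libraries, with WT in blue, KIN in orange and a line at the mean of 3. The Lys-TTT share was higher in KIN astrocytes and lower in KIN microglia, the His-GTG share was lower in KIN astrocytes (0.447 to 0.456% against 0.597 to 0.628%), and the ratio was near 2 in microglia and near 1 elsewhere.

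Within lysine the balance of the anticodons overlapped between the genotypes in every fraction. Lys-TTT made up 11.5 ± 2.4% of the lysine counts in Astrocytes WT and 11.9 ± 0.6% in Astrocytes KIN, a difference within the spread of the libraries (exact permutation p = 1.0). In microglia it made up 33.3, 17.5 and 32.0% in the WT libraries and 13.0, 22.1 and 21.2% in the KIN libraries (exact permutation p = 0.3, adjusted 0.4 over 12). The low WT library was replicate 2 and the low KIN library replicate 1, the same that were high for Lys-CTT. In neurons the share was 15.2 ± 7.1% in WT and 8.86 ± 0.90% in KIN (exact permutation p = 0.4, adjusted 0.436).

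The main isodecoders of Lys-CTT shared their reads differently in microglia than in the other fractions. Per gene copy, the ratio of Lys-CTT-2 to Lys-CTT-3 was 1.95, 2.22 and 1.95 in Microglia WT and 2.34, 2.21 and 2.10 in Microglia KIN. It was 1.15 ± 0.03 in Astrocytes WT, 1.27 ± 0.09 in Astrocytes KIN, 0.93 ± 0.11 in Neurons WT and 1.04 ± 0.11 in Neurons KIN. The 6 microglia libraries lay above all 12 others, of which the highest was 1.37 (Astrocytes KIN replicate 3). This ratio was chosen after the values were seen, and reads that fit both isodecoders could have been placed at either. In the tests between fractions Lys-CTT-2 passed with a rise in Microglia KIN against Astrocytes KIN (0.63 ± 0.22, adjusted p = 0.0385, edgeR), whereas Lys-CTT-3 did not (-0.19 ± 0.20, adjusted p = 0.485, edgeR). In WT neither passed (0.34 ± 0.39 and -0.53 ± 0.36). The share of Lys-CTT-2 in Lys-CTT was 38.7 ± 1.3% in KIN microglia against 26.5 ± 1.4% in KIN astrocytes and 36.7 ± 1.8% against 24.7 ± 0.5% in WT, with no overlap (exact permutation p = 0.1 each). Between the genotypes, the share of Lys-CTT-3 in Lys-CTT was 75.2 ± 0.5% in WT and 73.3 ± 1.4% in KIN astrocytes, without overlap (exact permutation p = 0.1, adjusted 0.24).

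The minor isodecoders were low in every group. His-GTG-3 held 12.1 to 14.3 CPM in Astrocytes WT, 14.0 to 17.6 CPM in Astrocytes KIN, 3.46 to 8.06 CPM in Microglia WT and 8.85 to 23.2 CPM in Microglia KIN. Its microglial log2 fold change of 1.78 ± 0.53 did not pass (adjusted p = 0.0680, edgeR), and in astrocytes it was 0.46 ± 0.26 (adjusted p = 0.228, edgeR), above that of His-GTG-2 (-0.13 ± 0.11). The leading isodecoder His-GTG-2 accordingly took 97.9 ± 0.2% of His-GTG counts in Astrocytes WT and 97.0 ± 0.3% in Astrocytes KIN (exact permutation p = 0.1, adjusted 0.24). Lys-CTT-14 had 2, 10 and 5 counts in Astrocytes WT and 16, 11 and 15 in Astrocytes KIN, and did not pass (1.40 ± 0.50, adjusted p = 0.0846, edgeR). Lys-CTT-4, Lys-CTT-12 and Lys-TTT-2 stayed under 16 CPM in every library, and none of the 3 passed between genotypes.

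The second question of the design is how the fractions differ, which was asked apart in WT and in KIN libraries. The 6 comparisons reuse the same libraries as each other and as the comparisons of genotype. Lys-TTT was the member with the clearest preference, for microglia. By mean CPM its groups ran from Microglia KIN (1863 ± 279) and Microglia WT (1587 ± 86) through Astrocytes KIN (1210 ± 96) and Astrocytes WT (822 ± 108) to Neurons WT (411 ± 286) and Neurons KIN (381 ± 80). Neighbours in this order did not overlap except for the microglia groups with each other and the neuron groups with each other. Lys-CTT ran from Astrocytes KIN (8957 ± 370), Microglia KIN (8363 ± 1870) and Astrocytes WT (6388 ± 708) to Microglia WT (4673 ± 2418), Neurons KIN (3902 ± 649) and Neurons WT (2845 ± 1972), and Microglia KIN and Astrocytes WT were the only neighbours without overlap. His-GTG ran from Astrocytes WT (660 ± 44), Astrocytes KIN (548 ± 19) and Microglia KIN (523 ± 160) to Neurons WT (324 ± 365), Microglia WT (290 ± 137) and Neurons KIN (207 ± 51), and its astrocyte groups were the only neighbours without overlap.

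Lys-TTT was higher in microglia than in astrocytes in both genotypes. In WT its log2 fold change was 1.03 ± 0.22 (adjusted p = 0.00341, edgeR) against a median of all features of -0.25, at rank 4 of 49 anticodons, and in KIN it was 0.78 ± 0.17 (adjusted p = 0.00260, edgeR) against a median of 0.05, at rank 13. The KIN value no longer passed relative to all tRNA (0.28, adjusted p = 0.149, edgeR) or in 1 fit of all 18 libraries (0.85, adjusted p = 0.0882, edgeR). His-GTG was lower in WT microglia (-1.02 ± 0.36, adjusted p = 0.0425, edgeR, rank 47), and in KIN it did not pass (0.12 ± 0.24, adjusted p = 0.715, edgeR). The fall of His-GTG no longer passed when any WT library other than Microglia WT replicate 2 was left out (-0.69 to -1.09), and without that replicate it was -1.71. Lys-CTT did not pass in either genotype (-0.26 ± 0.37 and 0.09 ± 0.21). Without Microglia WT replicate 2 it fell by 1.02 on the log2 scale (adjusted p = 5.1e-05, edgeR).

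Of the isodecoders tested between microglia and astrocytes, 2 of 9 were called in WT, where 32.7% of all features were called. These were Lys-TTT-1, higher in microglia (1.04 ± 0.22), and His-GTG-2, lower (-1.02 ± 0.36). In KIN 1 of 9 was called, against 35.9% of all features, and 3 of 9 passed, against 43.0%. The called isodecoder was Lys-CTT-14, lower in microglia (-1.40 ± 0.49, adjusted p = 0.0339, edgeR) with 7, 4 and 4 counts against 16, 11 and 15 in astrocytes. It reached the minimum of counts only through the astrocyte libraries, where it was high, so the call is a description. No isodecoder was called here by DESeq2, without the filter on low counts, with the replicate block or in 1 fit of all 18 libraries. The other two that passed were Lys-CTT-2 and Lys-TTT-1 (0.77 ± 0.17). The share of Lys-TTT in tRNA counts gave the same order without scaling, at 1.65 ± 0.22% in Microglia WT against 0.758 ± 0.083% in Astrocytes WT and 1.21 ± 0.13% against 0.995 ± 0.057% in KIN, with no overlap in either genotype (exact permutation p = 0.1 each).

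In the neuron fraction all 3 anticodons were lower than in the glial fractions in KIN, as were nearly all tRNAs. Against KIN astrocytes the log2 fold changes were -1.63 ± 0.15 for Lys-CTT (adjusted p = 2.07e-08, edgeR), -2.10 ± 0.19 for Lys-TTT (adjusted p = 2.03e-08, edgeR) and -1.84 ± 0.20 for His-GTG (adjusted p = 1.72e-07, edgeR). Against KIN microglia they were -1.71 ± 0.22 (adjusted p = 6.09e-07, edgeR), -2.87 ± 0.25 (adjusted p = 4.36e-10, edgeR) and -1.95 ± 0.28 (adjusted p = 2.68e-06, edgeR). All 49 anticodons were lower in both comparisons, with medians of -1.96 and -2.24, and 46 passed with a fall against astrocytes and 49 against microglia. Lys-CTT (ranks 20 and 11) and His-GTG (ranks 21 and 17) thus fell less than the median tRNA and Lys-TTT (ranks 32 and 40) more. Of the isodecoders 8 of 10 were called against astrocytes (1 higher, 7 lower), where 44.7% of all features and 126 of 174 tRNA isodecoders were called. Against microglia 7 of 10 were called (1 higher, 6 lower), where 51.5% of all features and 145 of 175 tRNA isodecoders were called. The fall rests on the scale. When mature miRNAs set it, 8 of the 10 isodecoders passed as higher against astrocytes and none as lower, with sums of 1.57, 1.12 and 1.34, and the median of all features became 3.13. Relative to the median of all features Lys-CTT lay between -1.60 and -1.57, Lys-TTT between -2.07 and -2.02 and His-GTG between -1.81 and -1.79 over the 4 other fits named above. These distances could likewise hardly move with the scale and do not test it.

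The isodecoder called higher in KIN neurons was His-GTG-1, a minor His family, with 7, 4 and 8 counts in neurons, 1, 0 and 1 in astrocytes and 1, 1 and 1 in microglia. It reached the minimum of 5 counts in 2 libraries through the neuron libraries alone, so it was tested because it was high there, and its counts are a description. Without Neurons KIN replicate 1 or replicate 3 it no longer reached that minimum. Of the isodecoders called lower, Lys-CTT-12 and Lys-CTT-14 against astrocytes and Lys-CTT-4 against microglia likewise reached the minimum only through the glial libraries, and the numbers called are not support for the members as a whole. In WT neurons His-GTG-1 had 2, 29 and 2 counts, the 29 in replicate 2. Without Neurons KIN replicate 3, the number called fell to 5 against astrocytes and 4 against microglia.

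In WT the neuron libraries spread more widely and fewer of the values passed. Against astrocytes the log2 fold changes were -1.43 ± 0.59 for Lys-CTT, -1.25 ± 0.51 for Lys-TTT and -1.23 ± 0.72 for His-GTG (adjusted p of 0.0875, 0.0839 and 0.199, edgeR), against a median of -0.53 for all features and -1.30 for tRNA. No isodecoder of 11 was called, against 32.1% of all features. At an unadjusted p under 0.05 the number was 4, against 47.7% of all features. DESeq2 called 1 of the isodecoders, and 1654 of 5627 features in its fit of anticodon sums. This was the comparison in which libraries of the same number correlated above 0.1 in every pair. With the replicate number as a block the sums passed at -1.82, -1.53 and -1.97 (adjusted p of 0.00683, 0.00349 and 0.00443, edgeR). With that block 5 isodecoders were called, and 1756 of 5627 features in the fit of anticodon sums. Without Neurons WT replicate 2, 5 isodecoders were called as well, and 1796 of 5343 features in the fit of anticodon sums. The sums were then -1.78, -2.03 and -2.86. Against microglia only Lys-TTT passed (-2.20 ± 0.48, adjusted p = 0.00672, edgeR), while Lys-CTT (-1.05 ± 0.64) and His-GTG (-0.13 ± 0.72) did not. Of 8 isodecoders 2 were called, against 30.1% of all features: Lys-TTT-1, lower (-2.19 ± 0.49), and Lys-TTT-3, higher, with 0, 10 and 5 counts in neurons and 0, 0 and 2 in microglia. Lys-TTT-3 reached the minimum of counts through the neuron libraries alone, and its counts are a description. When mature miRNAs set the scale, the sums became 0.92, 1.05 and 0.87 against astrocytes and 1.13, -0.18 and 1.71 against microglia, with medians of all features of 1.84 and 2.01.

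Ttyh1-210, whose stretch with the CTT loop is printed above, was counted after the tRNA round and gathered 479 to 24059 counts per library. Its counts came to 69.1 to 73.1% of those on Lys-CTT in the astrocyte libraries, 56.1 to 62.4% in microglia and 68.1 to 73.5% in neurons. Set against Lys-CTT-3 alone they came to 0.85 to 1.04 times its counts in all 18 libraries. The ratio thus moved far less than the counts, which spanned 694 to 34546 for Lys-CTT. In astrocytes Ttyh1-210 rose in KIN by a log2 value of 0.64 ± 0.08 (adjusted p = 0.00406, edgeR), beside 0.65 ± 0.09 for Lys-CTT, and it did not pass in microglia (1.02 ± 0.44) or neurons (0.49 ± 0.53). In KIN neurons it fell by 1.57 on the log2 scale against astrocytes (SE 0.15, adjusted p = 4.73e-08, edgeR), beside -1.63 for Lys-CTT. Whether its reads came from Lys-CTT tRNA was not tested, since the deposited counts do not show where in the transcript a read was placed.

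**Figure D4:**
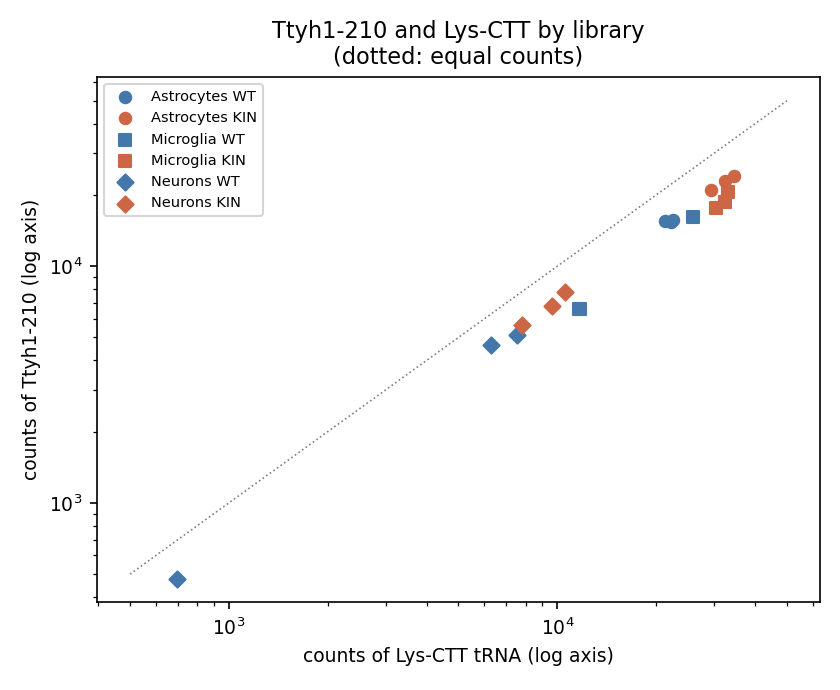
Counts of Ttyh1-210 against counts of Lys-CTT in each of the 18 libraries on log axes, with a dotted line at equal counts. All points lie below the line and run along it, from 479 and 694 counts in Neurons WT replicate 1 to 24059 and 34546 in Astrocytes KIN replicate 3.

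The mitochondrial counterparts followed another order of the fractions than Lys-TTT. The gene mt-Tk held 94482 counts over the libraries and mt-Th 58430. In astrocytes mt-Tk stood at 4133, 3327 and 3635 CPM in WT and at 2460, 2500 and 3149 CPM in KIN, and mt-Th at 2196, 2173 and 2044 CPM in WT and at 1599, 1618 and 1707 CPM in KIN. All KIN libraries were lower, but neither gene passed (-0.30 ± 0.11, adjusted p = 0.0984, and -0.23 ± 0.09, adjusted p = 0.104, edgeR). In microglia mt-Tk stood at 931, 894 and 724 CPM in WT and at 1279, 1148 and 1165 CPM in KIN, all KIN libraries higher, and did not pass (0.74 ± 0.24, adjusted p = 0.0883, edgeR). The same held for mt-Th, at 554 to 596 CPM in WT and 597 to 640 CPM in KIN (0.34 ± 0.22, adjusted p = 0.406, edgeR). How many other features lay apart between the genotypes in this way was not counted. By edgeR, 34.3% of all features in astrocytes and 23.2% in microglia had an unadjusted p under 0.05. Both mitochondrial tRNAs were astrocyte-rich in both genotypes, where Lys-TTT was microglia-rich. Microglia were lower than astrocytes by -2.02 ± 0.23 for mt-Tk in WT (adjusted p = 3.74e-05, edgeR) and by -1.01 ± 0.18 in KIN (adjusted p = 6.58e-04, edgeR), and by -1.80 ± 0.22 and -1.26 ± 0.16 for mt-Th (adjusted p of 6.99e-05 and 4.16e-05, edgeR). KIN neurons were lower than KIN astrocytes by -4.22 ± 0.17 for mt-Tk and -2.78 ± 0.15 for mt-Th.

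Of the genes listed for their part in the making, charging, modification or cleavage of these tRNAs, the mitochondrial tRNAs and the RNA parts of RNase MRP (Rmrp, 53948 counts) and RNase P (Rpph1, 14726 counts), which trims the 5′ end of tRNA precursors, were the 4 with over 1000 counts. The other genes described here, among them the synthetases Kars1, Hars1 and Hars2, Thg1l and subunits of RNA polymerase III, held at most 107 counts each in these small RNA libraries, and Rpp25 held none. Between genotypes 1 of 5 tested transcripts passed in astrocytes, where 11.4% of all features did. It was the minor transcript of Rmrp, with 2808 counts and a rise (0.74 ± 0.20, adjusted p = 0.0428, edgeR). The main transcript of Rmrp, with 51140 counts, did not pass (0.37 ± 0.12, adjusted p = 0.0692, edgeR), nor did Rpph1 (0.55 ± 0.19, adjusted p = 0.0755, edgeR). None of 5 passed in microglia and none of 6 in neurons by edgeR. Rpph1 was higher in neurons than in astrocytes in WT (2.37 ± 0.28, adjusted p = 7.42e-04, edgeR) and in KIN (1.60 ± 0.19, adjusted p = 1.23e-06, edgeR).

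The features whose levels ran most like those of the 3 anticodons were found by Pearson's correlation of log2(CPM + 1) over the 18 libraries, which shared depth and the tRNA share of each library and are given without a test. Lys-CTT ran closest to Thr-CGT (r = 0.963), Gln-TTG (0.953) and Asp-GTC (0.937) among 45 other anticodons, and outside tRNA to Ttyh1-210 (0.989), ENSMUST00000246416 (0.914) and a transcript of Gm24044 (0.905). Lys-TTT ran closest to Val-CAC (0.942), Ile-TAT (0.942) and Trp-CCA (0.939), and outside tRNA to the miR-29a precursor Mir29a (0.974), mature mmu-miR-29a-3p (0.973) and the lincRNA ENSMUST00000193193 (0.962). His-GTG ran closest to Ala-CGC (0.977), Ala-TGC (0.972) and Pro-TGG (0.970), and outside tRNA to the lincRNAs ENSMUST00000181073 (0.968) and ENSMUST00000180529 (0.964) of B230208H11Rik and ENSMUST00020182375 (0.963).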

How the data were processed

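Small RNA of 18 libraries was sequenced by the study with a kit that adds molecular identifiers, whose use in these counts is not given in the sources used here. The authors trimmed reads with Cutadapt 4.6 (at least 20 bases), placed them with Bowtie2 2.4.4 on mature miRNAs, then tRNAs, piRNAs and Ensembl transcripts of mm39, and counted with HTSeq 2.0.2 without strand. The deposited values used are these raw counts per feature. A further 36 columns on other scales were not used, nor were 15 columns of the authors' own comparisons (fold changes and p-values).

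Groups and replicate numbers came from the sample titles. Nothing in the labels ties a number to a brain, so p-values measure the spread between libraries. Counts were fitted with edgeR 4.0.16 (R 4.3.3, limma 3.58.1, TMM) on features that reached 5 counts in 2 or more libraries of a fit, with p-values adjusted over all features. The procedure was checked on simulated data. Levels are CPM of the library total. Shares were compared by exact two-sided permutation tests. Alternatives were DESeq2 1.42.0, other scalings, no filter, single copies, 1 fit of all libraries, a replicate block and each library left out.

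Named were the anticodon sums, all His isodecoders, the 8 Lys isodecoders with most counts, every isodecoder called, the largest one not tested, and per anticodon the 3 anticodons and 3 other features most correlated with it. Members and lists were chosen with earlier results of these data known. Only for WT neurons against WT astrocytes did same-numbered libraries correlate above 0.1 in every pair (r of 0.16 to 0.38 over 3319 features). Even so, Neurons WT replicate 3 correlated best with Astrocytes WT replicate 1. This is a hint from the data and not the labels, and the blocked values are given for that comparison. Sequences are from GENCODE vM39 on GRCm39. Depth and counting limit values near 3 counts. One item of the list of related genes is not reported here.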

Additional observations from a re-analysis of the deposited data

Results flagged for a closer look

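The effect of KIN on the share of Lys-TTT in tRNA counts differed between microglia and astrocytes by -0.68 percentage points. The share was higher in KIN by 0.238 points in astrocytes and lower in KIN by 0.444 points (-0.444) in microglia, and in each fraction the 3 KIN libraries lay outside the WT range. Genotype labels were permuted in each fraction separately, in all 400 ways. This permutation gave an exact p of 0.005, the smallest it allows, and 0.045 after adjustment over the 9 such differences. The study took the fractions from the same brains, so the fractions of a mouse share a genotype, but the permutation treats them as independent. With the mouse as the unit, a permutation of 3 against 3 cannot go below 0.1, so these p-values may be too small. The test was chosen after the values were seen. With single libraries left out the difference ran from -0.81 to -0.61. As a share of all counts of a library, in place of tRNA counts, the difference was -0.011 points (exact permutation p = 0.705). In edgeR's fit of all 18 libraries the difference in the KIN effect on Lys-TTT did not pass (-0.22 ± 0.50, adjusted p = 1.00), and tRNA took 14.0 to 16.6% of the counts in KIN microglia against 8.53 to 11.3% in WT microglia, whose part in the share was not tested.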

How the results depend on the processing

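Recomputing the results under the alternatives gave 325 values, and leaving out single libraries gave 444 more. In all 769 values, 613 kept their direction and their side of the threshold or moved by less than the allowed spread, 24 lost and 23 gained the threshold, 60 changed sign and 49 moved. All log2 values below are for Lys-CTT, Lys-TTT and His-GTG in that order where 3 are given, M, A and N stand for microglia, astrocytes and neurons, and no cause was tested unless stated.

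With TMM on mature miRNAs, KIN against WT in A gave -0.11, 0.015 and -0.83, N against A gave 0.92, 1.05 and 0.87 in WT and 1.57, 1.12 and 1.34 in KIN, and N against M gave 1.13, -0.18 and 1.71 in WT and 0.82, -0.28 and 0.56 in KIN. His-GTG in M against A in WT was -0.90, isodecoders called were 1 (M against A, WT), 4 (N against A, WT) and 5 (N against M, WT), and the KIN effect in N minus A became 0.64, 0.082 and 0.52 and in N minus M 0.11 for Lys-TTT. This scaling moved the median of all features by construction, to 1.84 to 3.13 in the neuron comparisons. Relative to all tRNA, His-GTG in A was -0.43, Lys-TTT in M -0.45 and in N 0.14 for KIN against WT, N against M in WT gave 0.074, -1.31 and 0.60, M against A in KIN gave -0.42, 0.28 and -0.39, N against A in KIN gave 0.031 for Lys-CTT and -0.18 for His-GTG, and N against M in KIN 0.45 and 0.21. Each of the 4 neuron comparisons then had 1 isodecoder called, and KIN effects were -0.074 (Lys-CTT, M minus A), 0.30 and 0.29 (Lys-CTT and His-GTG, N minus A), 0.38 and 0.59 (Lys-CTT and Lys-TTT, N minus M). With library totals, called isodecoders were 1 (N against A, WT), 1 (N against M, WT) and 4 (N against M, KIN), His-GTG in N against M in WT was 0.17, and Lys-CTT and His-GTG in M against A in KIN were -0.099 and -0.070. DESeq2 called 1 isodecoder in M for KIN against WT, 1 in M against A and 1 in N against A in WT and 0 in M against A in KIN, and gave -0.92 for His-GTG in M against A in WT.

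With no filter on low counts, KIN against WT gave 0.11 (His-GTG, A), 0.97 and 0.99 (Lys-CTT and His-GTG, M) and 0.020 (Lys-TTT, N), called isodecoders were 2 (M), 1 (M against A, WT), 5 (N against A, WT) and 0 (M against A, KIN), and N against A in WT gave -1.66, -1.50 and -1.48 and N against M -1.53 for Lys-CTT. In 1 fit of all 18 libraries, which pools the spread, A gave 0.77 (adjusted p = 0.33, edgeR), 0.82 and 0.0024 for KIN against WT, called isodecoders were 1 (M against A, WT), 5 (N against A, WT), 4 (N against M, WT) and 0 (M against A, KIN), His-GTG in M against A in WT was -0.96, Lys-CTT and Lys-TTT in N against A in WT -1.29 and -1.14, and Lys-TTT in M against A in KIN 0.85. With a threshold on the adjusted p alone, 3 isodecoders counted in A for KIN against WT and 3 in M against A in KIN. For single gene copies instead of isodecoders the number called was 8 (M against A, WT), 6 (N against M, WT), 27 (N against A, KIN) and 26 (N against M, KIN), since each copy counts. With the counts of Ttyh1-210 added to Lys-CTT, M against A in KIN was -0.0043. As a share of all counts in place of tRNA counts, Lys-TTT in KIN minus WT was 0.028 percentage points in M and -0.0031 in N, and the difference of the KIN effect between M and A was -0.011.

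Same-numbered libraries correlated at -0.32 to 0.40 over the comparisons, and only N against A in WT had every pair above 0.1. With the replicate block, N against A in WT had 5 isodecoders called and sums of -1.82, -1.53 and -1.97, Lys-TTT in N for KIN against WT was 0.087, Lys-CTT in N against M in WT was -1.31, and 0 isodecoders were called in M against A in KIN. In M against A in WT 3 isodecoders passed with the block, against 2 without it. All other values kept their direction and side of the threshold or moved by less than the allowed spread. In no comparison did every library correlate best with its own number.

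With 1 library left out, isodecoders called for KIN against WT ran from 0 to 1 in A and 0 to 5 in M, and between fractions from 0 to 3 (M against A, WT), 0 to 5 (N against A, WT), 1 to 3 (N against M, WT), 0 to 1 (M against A, KIN), 5 to 8 (N against A, KIN) and 4 to 8 (N against M, KIN). For KIN against WT, the sums ran from 0.61 to 0.71 and 0.59 to 0.87 in A (Lys-CTT and Lys-TTT), from 0.75 to 1.75, 0.35 to 0.60 and 0.69 to 1.71 in M, and from -0.022 to 0.76, -0.51 to 0.57 and -1.14 to 0.84 in N. Between fractions they ran from -1.02 to 0.057 (Lys-CTT) and -1.71 to -0.69 (His-GTG) for M against A in WT, from -1.78 to -0.94, -2.03 to -0.85 and -2.86 to -0.76 for N against A in WT, from -1.66 to 0.48 (His-GTG) for N against M in WT, and from -0.20 to 0.15 (Lys-CTT) and -0.25 to 0.23 (His-GTG) for M against A in KIN. KIN effects ran from -0.61 to 0.21, -1.14 to 0.019 and -0.95 to 1.12 (N minus A), and from -0.89 to 0.28 (Lys-TTT) and -2.53 to 0.0014 (His-GTG) for N minus M. Shares in KIN minus WT ran from -0.12 to 1.85 points (Lys-CTT, M), -0.022 to 0.11 (His-GTG, M) and -0.11 to 0.095 (His-GTG, N). Without Neurons KIN replicate 1 or replicate 2, all 21 fitted values kept their direction and side of the threshold or moved by less than the allowed spread. Each of the other libraries ended or made a call, moved a number of calls or turned a direction of some result when left out.

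Another scaling also moved the split of all calls. Of the calls for KIN against WT in the fits of anticodon sums, 22.1% were higher in A and 27.4% in M. Over 4 other scalings (DESeq2, library totals, TMM on mature miRNAs and relative to all tRNA) they were 1.2 to 37.8% and 1.15 to 29%. For N against A and N against M the share higher went from 32.1% and 47.0% in WT and 46.3% and 51.9% in KIN to at most 93.9%, 93.1%, 94.8% and 92.5%, and for M against A in KIN from 39.7% to between 21.9% and 52.1%. Depth limits the minor isodecoders, of which 9 could not be tested.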
